A study of Mus musculus with 8 samples.

Results

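The genes of 8 C-type lectin receptors of macrophages were compared in 8 RNA-seq libraries of bone marrow derived macrophages, 2 libraries for each of 4 groups. The 8 genes, of 23354 gene symbols in the tables, were taken by name, with earlier results of these data known. Mrc1, Clec10a and Mgl2 encode lectins of mannose or galactose type, and Clec7a, Clec4b1, Clec4d, Clec4e and Clec4n encode receptors of Dectin and Mincle type. The groups, named after the sample titles, were Ern1f/fLyz2-Cre cells given IL-4, Ern1f/fLyz2-Cre control cells, Ern1f/f cells given IL-4 and Ern1f/f control cells. All 4 groups carried the floxed Ern1 allele, the gene of the endoplasmic reticulum stress sensor IRE1α, so the Ern1f/f cells are floxed cells without Cre and not wild type. Ern1f/fLyz2-Cre cells also carry Cre recombinase under control of the Lyz2 gene, a gene on in macrophages, granulocytes and their precursors. Donor mice were 8 weeks old, and marrow cells were grown for 7 days in medium conditioned by L929 fibroblasts. IL-4 was given at 20 ng/ml for 24 hours. The series asked how loss of IRE1α bears on the response of macrophages to IL-4. The labels do not state whether the 2 libraries of a group came from separate mice or cultures, so each p-value measures the spread between these libraries only. Libraries numbered 1 are called set 1 below and those numbered 2 are called set 2.

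C-type lectin receptors are membrane proteins that bind sugars on microbes and on the body's own glycoproteins. Mannose and galactose type receptors mostly take up their ligands, and Mrc1 and the galactose lectins are widely used as markers of alternative activation, the state that IL-4 induces through the transcription factor STAT6. Dectin and Mincle type receptors recognise fungal and mycobacterial cell wall components. They signal through the kinase Syk, either directly (Dectin-1) or through the Fc receptor γ chain, and on through the adaptor CARD9 to NF-κB.

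Expression is given as FPKM, fragments scaled by transcript length and library size, so levels of different genes can be set side by side. All 8 genes had 1 row in each table and all 8 passed the filter of at least 1 FPKM in at least 2 libraries, as did 10934 genes in all. The summed FPKM of a library was 532768 to 612334, and 10185 to 10729 genes reached 1 FPKM. The width of the deposited confidence intervals put the depth of the libraries at 0.758 to 1.24 times that of Ern1f/f control set 1. All 8 macrophage markers found were above 1 FPKM, among them Emr1 at 357 to 917 FPKM and Csf1r at 356 to 870 FPKM. Of the 8, Cd14 (log2 difference -1.67) and Fcgr1 (-0.95) were called lower with IL-4 in the blocked fit, averaged over genotypes (adjusted p = 0.0105 and 0.0101), and none was called without the block. Dendritic cells express Mgl2 too, and none of 10 dendritic cell markers reached 1 FPKM in any library. The summed level of these markers was 1.27 and 1.32 FPKM in Ern1f/fLyz2-Cre IL-4 cells, against 0.783 and 1.25 FPKM in Ern1f/fLyz2-Cre control cells. In Ern1f/f cells it was 1.66 and 1.86 FPKM with IL-4, against 0.767 and 1.28 FPKM in controls. The sum was thus higher with IL-4 in both sets of both genotypes, but its genes did not all rise. Zbtb46 had 0.531 and 0.468 FPKM in Ern1f/fLyz2-Cre IL-4 cells, against 0.241 and 0.344 FPKM in Ern1f/fLyz2-Cre control cells. In Ern1f/f cells Zbtb46 had 0.829 and 0.513 FPKM with IL-4, against 0.168 and 0.171 FPKM in controls. Clec9a was lower with IL-4 in Ern1f/fLyz2-Cre set 2, at 0.151 against 0.386 FPKM. The part of dendritic cells in the level of Mgl2 was not tested. Fibroblast markers were summed over 10 genes, of which 8 passed the filter. In set 1 they stood at 312 FPKM in Ern1f/fLyz2-Cre IL-4 cells, against 664 FPKM in Ern1f/fLyz2-Cre control cells, and at 113 FPKM in Ern1f/f IL-4 cells, against 245 FPKM in Ern1f/f control cells. In set 2 they stood at 3.45 to 11.2 FPKM in all groups. There Ern1f/fLyz2-Cre IL-4 and control cells had 3.45 and 4.99 FPKM, against 11.2 and 11.1 FPKM in Ern1f/f IL-4 and control cells. The fibroblast markers thus differed with set and, in set 1, with treatment. They also differed with genotype, being higher in Ern1f/fLyz2-Cre cells in set 1 and lower in set 2. Their part in the receptors' differences with treatment or genotype was not tested. In bulk libraries, fewer cells of a type and less RNA per cell cannot be told apart.

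The 2 galactose lectins lie close together on chromosome 11 and carry a long identical stretch, which matters for how their fragments are told apart. Mgl2 lies at chr11:70130357-70137542 and Clec10a at chr11:70166623-70170836 (mm10). Of the 2205 50-base words in Mgl2 transcripts (GENCODE M21), 289 (13.1%) also occur in another gene, and 270 of these occur in Clec10a. The longest coding stretch identical in both is 183 bases, spread over exons 7 to 9 of 10 in Mgl2, at chr11:70136337-70136699 on the plus strand. Clec4b1, at chr6:123049962-123071555, shares 68 of 783 words (8.69%) with Clec4a2. Their longest identical coding stretch is 82 bases in exon 4 of 5, at chr6:123069682-123069763 on the plus strand. The coding sequences, read from 5′ to 3′ in the transcript, are shown because fragments from them fit both genes of a pair.
Mgl2 and Clec10a: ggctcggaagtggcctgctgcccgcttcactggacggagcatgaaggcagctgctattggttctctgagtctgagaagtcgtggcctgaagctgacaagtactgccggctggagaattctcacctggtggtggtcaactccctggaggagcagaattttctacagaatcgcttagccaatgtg
Clec4b1 and Clec4a2: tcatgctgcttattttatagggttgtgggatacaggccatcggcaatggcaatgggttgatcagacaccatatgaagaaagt
The share was 0.686% for Clec4n, and no word of Mrc1, Clec7a, Clec4d or Clec4e occurred in another gene. How the authors' counting divided fragments between such copies is not given in the sources used here, so the levels of Mgl2, Clec10a and Clec4b1 carry that uncertainty.

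With IL-4, 5 of the 8 receptors stood above their control level and 3 below it. Averaged over the genotypes, Mrc1, Clec10a, Mgl2 and Clec4b1 rose, each with every IL-4 library above every control library. Clec7a was higher with IL-4 in all 4 set-matched pairs, and Clec4d, Clec4e and Clec4n were lower in all 4. How many of all genes agree over the 4 pairs in this way is not given here, so that agreement is a description only. Without a term for the replicate number, 4 of the 8 genes were called at an adjusted p under 0.05, all higher with IL-4, beside 0.841% of the 10934 genes tested (0.668% higher and 0.174% lower). With the replicate number as a block, 6 of 8 were called, 5 higher and 1 lower, beside 12.7% of all genes (5.88% higher and 6.86% lower). Non-overlap with IL-4 above held for 4 of the 8 members, beside 6.98% of all genes, and with IL-4 below for 1 of 8, beside 7.23%. The members were chosen with earlier results of these data known, so these shares describe the members and do not test them as a family. The median log2 difference of the 3 mannose and galactose lectins was 2.07, that of the 5 Dectin and Mincle type receptors was -1.0 and that of all genes tested was -0.03. With 1 library left out and no block, Clec4b1 stayed called in 7 of 8 fits (not without Ern1f/fLyz2-Cre IL-4 set 2), Mgl2 in 3 (without Ern1f/fLyz2-Cre IL-4 set 1, Ern1f/f IL-4 set 2 or Ern1f/f control set 2), and Mrc1 and Clec10a in 1 (without Ern1f/f IL-4 set 2). With the block, those 4 and Clec7a were called in 8 of 8 fits and Clec4d in 7, the exception being without Ern1f/fLyz2-Cre IL-4 set 1. The split does not follow the 2 families cleanly, because Clec7a and Clec4b1 stood on the side of the mannose and galactose lectins.

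**Figure D1:**
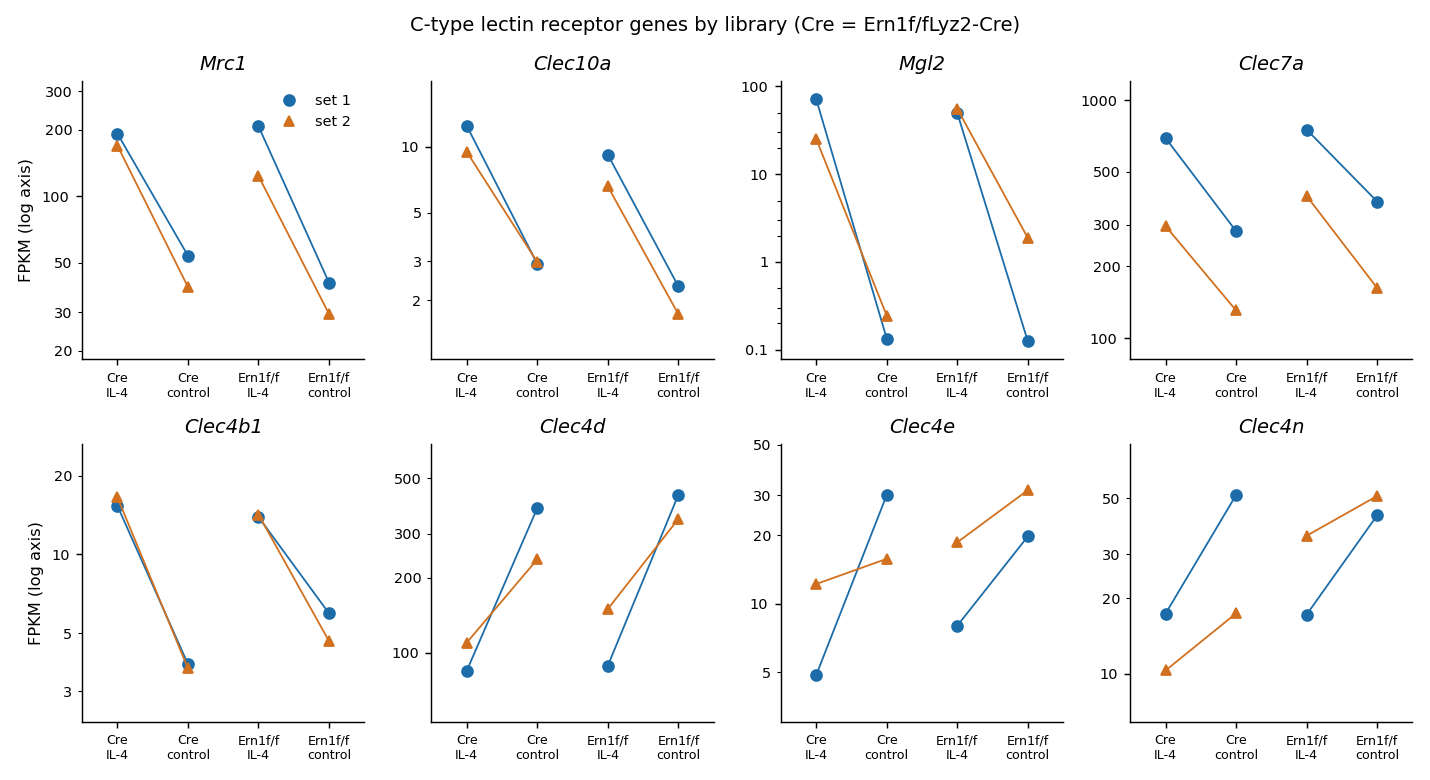
FPKM (log axis) of each receptor gene in the 8 libraries; lines join the IL-4 and control libraries of 1 genotype and set. Mrc1, Clec10a, Mgl2, Clec7a and Clec4b1 slope down toward the control cells in all 4 pairs, while Clec4d, Clec4e and Clec4n slope up.

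Mrc1 encodes the mannose receptor CD206, an endocytic receptor for mannose, fucose and N-acetylglucosamine. It lies at chr2:14229414-14332023. Its level was 193 and 170 FPKM (set 1, set 2) in Ern1f/fLyz2-Cre IL-4 cells, against 54.0 and 39.0 FPKM in Ern1f/fLyz2-Cre control cells. Ern1f/f cells had 208 and 124 FPKM with IL-4, against 40.8 and 29.4 FPKM in controls. The lowest IL-4 library was thus more than 2 times the highest control library. The ratio of FPKM, IL-4 over control within a set, was 3.57 and 4.36 in Ern1f/fLyz2-Cre cells and 5.10 and 4.21 in Ern1f/f cells. Averaged over genotypes, the log2(FPKM + 1) difference was 2.07 ± 0.22 (SE, limma over 8 libraries, adjusted p = 0.0188). Within 1 genotype the call depended on the block. The difference was 1.96 ± 0.31 in Ern1f/fLyz2-Cre cells (adjusted p = 0.130 without the block, 0.00517 with it) and 2.18 ± 0.31 in Ern1f/f cells (0.115 without, 0.00449 with).

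Clec10a encodes MGL1, which binds galactose and Lewis X structures. It was the least abundant of the mannose and galactose lectins with IL-4. Its level was 12.4 and 9.47 FPKM in Ern1f/fLyz2-Cre IL-4 cells, against 2.92 and 2.98 FPKM in Ern1f/fLyz2-Cre control cells. With the floxed allele alone it was 9.19 and 6.59 FPKM in Ern1f/f IL-4 cells, against 2.31 and 1.72 FPKM in Ern1f/f control cells. All 4 IL-4 libraries were above all 4 control libraries. The averaged log2 difference was 1.57 ± 0.15 (SE, adjusted p = 0.0138). It was 1.59 ± 0.21 in Ern1f/fLyz2-Cre cells (adjusted p = 0.0859 without the block, 0.00596 with it) and 1.55 ± 0.21 in Ern1f/f cells (0.106 without, 0.00721 with).

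Mgl2 encodes the closely related lectin CD301b, which binds galactose and N-acetylgalactosamine. It was near the lower limit in 3 of the 4 control libraries. Levels were 71.7 and 25.2 FPKM in Ern1f/fLyz2-Cre IL-4 cells, against 0.134 and 0.245 FPKM in Ern1f/fLyz2-Cre control cells. Ern1f/f IL-4 cells had 49.8 and 55.6 FPKM, against 0.126 and 1.88 FPKM in Ern1f/f control cells. The groups did not overlap, and the averaged log2(FPKM + 1) difference was the largest of the 8 genes. Interval widths put the controls at about 7 and 9 fragments in Ern1f/fLyz2-Cre cells and at about 6 and 93 in Ern1f/f cells. The averaged log2(FPKM + 1) difference was 5.05 ± 0.42 (SE, adjusted p = 0.0109), a scale that understates the change of a gene so low in controls. Its value was 5.20 ± 0.59 in Ern1f/fLyz2-Cre cells (adjusted p = 0.0610 without the block, 0.0101 with it) and 4.90 ± 0.59 in Ern1f/f cells (0.0809 without, 0.0151 with). The one control library above 1 FPKM, Ern1f/f control set 2, stood 14.97-fold above the same group's set 1.

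The 2 galactose lectins changed rank with IL-4. The FPKM ratio of Mgl2 over Clec10a was 5.76 and 2.66 in Ern1f/fLyz2-Cre IL-4 cells, against 0.0460 and 0.0824 in Ern1f/fLyz2-Cre control cells. The ratio in Ern1f/f cells was 5.42 and 8.44 with IL-4, against 0.0544 and 1.09 in controls. Mgl2 was the higher of the pair in each IL-4 library and the lower in 3 of 4 control libraries. These ratios rest on the authors' split of fragments between genes that share the stretch printed above.

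Clec4b1 rose with IL-4 as the mannose and galactose lectins did. It encodes the receptor DCAR, which in mice binds mycobacterial phosphatidylinositol mannosides and pairs with the Fc receptor γ chain. Its FPKM was 15.3 and 16.5 in Ern1f/fLyz2-Cre IL-4 cells, against 3.81 and 3.67 in Ern1f/fLyz2-Cre control cells. It was 13.9 and 14.2 in Ern1f/f IL-4 cells, against 5.95 and 4.67 in Ern1f/f control cells. The IL-4 libraries all lay above the control libraries, and sets 1 and 2 were close in each group. Its averaged difference of 1.55 ± 0.10 (SE) had the smallest adjusted p of the 8 genes, 0.00732. In Ern1f/fLyz2-Cre cells alone it was 1.84 ± 0.14 with an adjusted p of 0.0490, the only member called there without the block, beside 0.0549% of all genes. The difference in Ern1f/f cells was 1.26 ± 0.14 (adjusted p = 0.0730 without the block, 0.0109 with it). Clec4a2, which shares the 82-base stretch, had an averaged IL-4 difference of 0.15 and was not called in either fit (adjusted p = 0.932 without the block, 0.485 with it).

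Clec7a encodes Dectin-1, the β-glucan receptor, at chr6:129461591-129472777 on the minus strand. Ern1f/fLyz2-Cre IL-4 cells had 693 and 296 FPKM, against 282 and 131 FPKM in Ern1f/fLyz2-Cre control cells. Ern1f/f IL-4 cells had 752 and 396 FPKM, against 375 and 162 FPKM in Ern1f/f control cells. Across sets the treatments overlapped, since Ern1f/f control set 1 was above Ern1f/fLyz2-Cre IL-4 set 2. Within a set they did not, and the ratio of FPKM was 2.46 and 2.26 in Ern1f/fLyz2-Cre cells and 2.01 and 2.44 in Ern1f/f cells. Set 1 was 1.90- to 2.34-fold above set 2 in all 4 groups, about as large a step as IL-4 itself. The averaged difference of 1.19 was not called without the block (SE 0.46, adjusted p = 0.335) and was called with it (SE 0.09, adjusted p = 0.00113). With the block it was also called in each genotype alone, at an adjusted p of 0.00800 in Ern1f/fLyz2-Cre cells and 0.0121 in Ern1f/f cells.

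In the blocked fit, 5 of 8 members were called in Ern1f/fLyz2-Cre cells and 5 of 8 in Ern1f/f cells, the 5 that were higher with IL-4 in both. The background was 3.32% of all genes in Ern1f/fLyz2-Cre cells (1.79% higher, 1.53% lower) and 2.12% in Ern1f/f cells (1.26% higher, 0.86% lower). Without the block no member was called in Ern1f/f cells, where limma called 0 genes in all (0%) and 673 had an unadjusted p under 0.05.

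**Figure D2:**
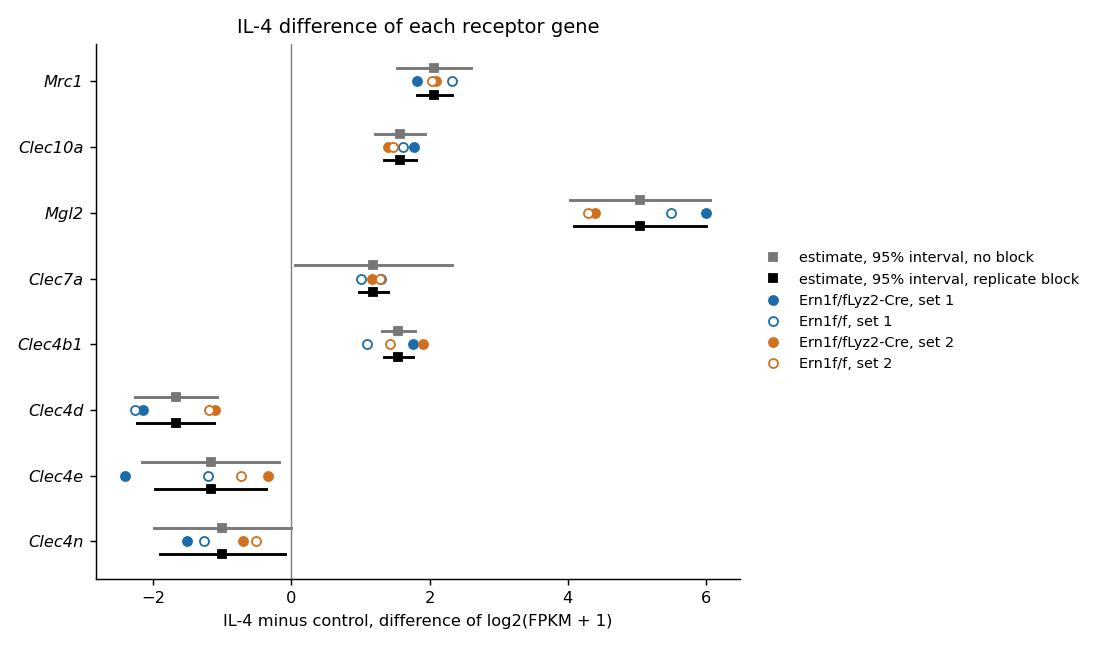
IL-4 minus control difference of log2(FPKM + 1) for each receptor gene, with the estimate averaged over genotypes and its 95% interval without (grey) and with (black) the replicate block, and the 4 within-set differences as circles. The points of Clec7a lie close together while its grey interval is wide, and those of Clec4d, Clec4e and Clec4n are farther below 0 in set 1 than in set 2.

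Clec4d, Clec4e and Clec4n lie within 1 stretch of chromosome 6, at 123262107-123275268, 123281789-123289871 and 123229843-123247024. Clec4d encodes MCL, a receptor for the mycobacterial glycolipid trehalose dimycolate that pairs with Mincle. It was the most abundant of the 8 genes in each control library. Ern1f/fLyz2-Cre IL-4 cells had 84.8 and 110 FPKM, against 380 and 237 FPKM in Ern1f/fLyz2-Cre control cells. Ern1f/f IL-4 cells had 88.9 and 150 FPKM, against 430 and 344 FPKM in Ern1f/f control cells. All 4 IL-4 libraries were below all 4 control libraries. The IL-4 level was 22.3% and 46.4% of control in Ern1f/fLyz2-Cre cells and 20.7% and 43.6% in Ern1f/f cells, so the IL-4 level was the smaller share of control in set 1 in both genotypes. The averaged difference of -1.68 ± 0.24 missed the threshold without the block (adjusted p = 0.0510) and passed it with the block (adjusted p = 0.00809). In neither genotype alone was it called, with an adjusted p of 0.286 without the block and 0.0530 with it in Ern1f/fLyz2-Cre cells, and of 0.276 and 0.0552 in Ern1f/f cells.

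Clec4e encodes Mincle, the trehalose dimycolate receptor itself. Ern1f/fLyz2-Cre IL-4 cells had 4.85 and 12.2 FPKM, against 30.0 and 15.7 FPKM in Ern1f/fLyz2-Cre control cells. Ern1f/f IL-4 cells had 8.01 and 18.6 FPKM, against 19.7 and 31.5 FPKM in Ern1f/f control cells. It was lower with IL-4 in each pair, but the treatments overlapped across libraries. The IL-4 level was 16.2% and 77.5% of control in Ern1f/fLyz2-Cre cells and 40.6% and 59.0% in Ern1f/f cells. The averaged difference was -1.17 ± 0.41 and was not called in either fit (adjusted p = 0.284 without the block, 0.0692 with it).

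Clec4n encodes Dectin-2, a receptor for fungal α-mannans. Ern1f/fLyz2-Cre IL-4 cells had 17.4 and 10.3 FPKM, against 51.6 and 17.4 FPKM in Ern1f/fLyz2-Cre control cells. Ern1f/f IL-4 cells had 17.2 and 35.5 FPKM, against 42.9 and 51.2 FPKM in Ern1f/f control cells. The treatments overlapped, since Ern1f/f IL-4 set 2 was above Ern1f/fLyz2-Cre control set 2. The averaged difference was -1.0 ± 0.41 (adjusted p = 0.357 without the block, 0.138 with it), so the spread of these libraries leaves its size uncertain. 

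The order of the receptors by FPKM changed with treatment. In the 4 control libraries Clec4d was highest and Clec7a next. In the 4 IL-4 libraries Clec7a was highest, with Mrc1 next in 3 of them and Clec4d next in Ern1f/f IL-4 set 2. The ratio of Clec7a over Clec4d was 8.18 and 2.69 in Ern1f/fLyz2-Cre IL-4 cells, against 0.741 and 0.552 in Ern1f/fLyz2-Cre control cells. Ern1f/f cells had ratios of 8.46 and 2.64 with IL-4, against 0.873 and 0.473 in controls. The ratio of Mrc1 over Clec4d was 2.27 and 1.55 in Ern1f/fLyz2-Cre IL-4 cells, against 0.142 and 0.165 in Ern1f/fLyz2-Cre control cells. This ratio in Ern1f/f cells was 2.34 and 0.826 with IL-4, against 0.0949 and 0.0856 in controls. Both ratios lay above all control values in each IL-4 library.

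**Figure D3:**
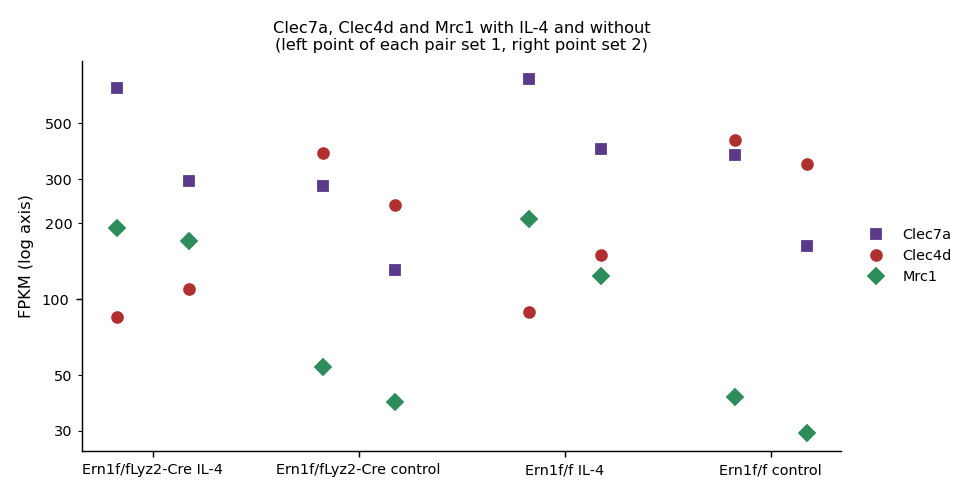
FPKM (log axis) of Clec7a, Clec4d and Mrc1 in each library, set 1 at the left of each group and set 2 at the right. Clec4d is the top point in all 4 control libraries and Clec7a in all 4 IL-4 libraries.

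Below the leading genes the order was looser. In Ern1f/fLyz2-Cre IL-4 cells, mean levels (± SD, n = 2) were 494 ± 281 FPKM for Clec7a, 181 ± 16.1 for Mrc1, 97.3 ± 17.8 for Clec4d and 48.4 ± 32.9 for Mgl2, with no overlap between neighbours. Clec4b1 (15.9 ± 0.849), Clec4n (13.9 ± 4.99), Clec10a (10.96 ± 2.10) and Clec4e (8.53 ± 5.20) followed and overlapped. In Ern1f/f IL-4 cells the ranges of Mrc1 and Clec4d overlapped, and so did those of Clec4n, Clec4b1, Clec4e and Clec10a in a chain. In control cells of both genotypes the ranges of Clec4d and Clec7a overlapped, although Clec4d was above Clec7a within each library. In Ern1f/fLyz2-Cre control cells Clec4b1, Clec10a and Mgl2 had 3.74 ± 0.0989, 2.95 ± 0.0401 and 0.190 ± 0.0783 FPKM and were the 3 lowest, with no overlap. In Ern1f/f control cells the lowest were Clec10a (2.02 ± 0.413) and Mgl2 (1.003 ± 1.24), which overlapped.

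Summed over the 5 Dectin and Mincle type receptors the level differed less between treatments than Clec7a and Clec4d did, the 2 that make up most of it. The sum was 816 and 445 FPKM in Ern1f/fLyz2-Cre IL-4 cells, against 747 and 404 FPKM in Ern1f/fLyz2-Cre control cells. The Ern1f/f sum was 880 and 614 FPKM with IL-4, against 873 and 593 FPKM in controls. The 3 mannose and galactose lectins summed to 277 and 205 FPKM in Ern1f/fLyz2-Cre IL-4 cells, against 57.0 and 42.2 FPKM in Ern1f/fLyz2-Cre control cells. Their sum in Ern1f/f cells was 267 and 186 FPKM with IL-4, against 43.2 and 33.0 FPKM in controls. These sums were not tested.

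STAT6, the factor IL-4 activates, binds palindromes of the form TTC, any 4 bases, GAA, so the windows from 250 bases before to 50 bases after the start site (RefSeq, GRCm38.p6) were searched for it and for the same palindrome with 3 bases between TTC and GAA, the spacing that other STAT factors prefer. Windows were found for 6 of the 8 genes. Both motifs are their own reverse complement in form, so 1 search covers both strands. Of all 32851 windows, 6.95% held the motif with 4 bases between and 8.30% that with 3. Among the 6 genes, Clec7a alone held the motif with 4 bases between, with its first base at -131 from one and at -125 from the other of its 2 listed start sites, and none held that with 3. The 250 bases before the start of a gene are shown in transcript direction for Clec7a, with the match in capitals, for Mrc1 and Mgl2, which rose and hold no match, and for Clec4d, which was lower with IL-4. They lie at chr6:129472780-129473029 (minus strand), chr2:14229164-14229413, chr11:70130107-70130356 and chr6:123261857-123262106 (plus strand).
Clec7a: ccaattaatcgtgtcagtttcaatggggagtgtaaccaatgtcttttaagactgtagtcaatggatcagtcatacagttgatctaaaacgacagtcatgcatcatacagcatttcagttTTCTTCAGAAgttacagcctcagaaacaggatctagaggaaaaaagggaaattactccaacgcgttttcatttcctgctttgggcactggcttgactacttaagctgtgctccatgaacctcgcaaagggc
Mrc1: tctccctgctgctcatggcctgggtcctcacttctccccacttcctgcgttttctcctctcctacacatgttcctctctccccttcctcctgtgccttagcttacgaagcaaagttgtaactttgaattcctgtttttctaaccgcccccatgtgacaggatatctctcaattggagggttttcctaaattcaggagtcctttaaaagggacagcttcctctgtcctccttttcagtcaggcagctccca
Mgl2: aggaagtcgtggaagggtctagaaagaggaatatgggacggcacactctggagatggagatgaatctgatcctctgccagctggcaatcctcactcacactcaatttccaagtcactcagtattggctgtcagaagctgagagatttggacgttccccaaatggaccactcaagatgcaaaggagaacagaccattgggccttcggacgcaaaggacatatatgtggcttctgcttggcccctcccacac
Clec4d: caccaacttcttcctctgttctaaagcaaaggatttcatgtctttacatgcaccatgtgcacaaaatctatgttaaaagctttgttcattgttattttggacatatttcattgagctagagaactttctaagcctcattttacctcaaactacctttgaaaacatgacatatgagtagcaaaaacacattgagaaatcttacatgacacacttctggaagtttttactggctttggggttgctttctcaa
A match of these letters is a description of the window and not a mapped site, and sites outside the window were not searched.

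Between genotypes no member was called. In IL-4 cells, 0 of 8 were called without and with the block, beside 0% and 0.00915% of all genes, and in control cells 0 of 8, beside 0% in both fits. Without the block, limma gave each member an adjusted p of 1. At an unadjusted p under 0.05 there were 0 members and 42 genes in all for IL-4 cells, and 1 member and 27 genes in all for control cells. With the block these were 1 and 189 for IL-4 cells, and 4 and 137 for control cells. The 3 mannose and galactose lectins had a median log2 difference, Ern1f/fLyz2-Cre minus Ern1f/f, of 0.17 in IL-4 cells and 0.40 in control cells. The 5 Dectin and Mincle type receptors had -0.27 and -0.36, and all genes tested 0.02 and 0.00. A p that misses the threshold does not show equal levels, and intervals are given next for Clec10a and Clec7a.

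Clec10a was higher and Clec7a and Clec4d were lower in Ern1f/fLyz2-Cre cells in all 4 set-matched pairs, none of them past the threshold. The share of all genes with such agreement is not given here, so this is a description only. Clec10a in Ern1f/fLyz2-Cre cells stood at 135% and 144% of the Ern1f/f level with IL-4 and at 126% and 173% in controls. Its log2 difference was 0.43 with IL-4 (95% interval -0.08 to 0.94) and 0.40 in controls (-0.11 to 0.90). Clec7a stood at 92.2% and 74.7% of the Ern1f/f level with IL-4 and at 75.1% and 80.5% in controls. The log2 difference of Clec7a was -0.27 with IL-4 (-1.87 to 1.33) and -0.36 in controls (-1.96 to 1.24). Those intervals are from the fit without the block. With it, the interval of Clec10a was 0.11 to 0.76 with IL-4 and 0.07 to 0.72 in controls, and that of Clec7a was -0.56 to 0.02 with IL-4 and -0.65 to -0.07 in controls, before any adjustment over genes. Clec4d stood at 95.4% and 73.3% with IL-4 and at 88.5% and 69.0% in controls. Mrc1 stood at 92.6% and 137% with IL-4 and at 132% and 133% in controls.

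Clec4b1 had the same direction in both sets within a treatment, and so did Clec4e with IL-4. For Clec4n and Mgl2, for Mrc1 with IL-4 and for Clec4e in controls the difference depended on the set. Clec4n in Ern1f/fLyz2-Cre cells stood at 101% of its Ern1f/f counterpart with IL-4 in set 1 and at 29.1% in set 2, and at 120% and 34.1% in controls. Mgl2 stood at 144% in set 1 and 45.3% in set 2 with IL-4, and at 107% and 13.0% in controls, most of them near the lower limit. Clec4e stood at 60.6% and 65.6% with IL-4, and at 152% in set 1 and 49.97% in set 2 in controls. No direction can be read from genes whose sets point opposite ways. Lyz2, the locus that carries Cre, also differed more in set 2. It was at 5780 and 1572 FPKM in Ern1f/fLyz2-Cre IL-4 cells, against 8901 and 11961 FPKM in Ern1f/f IL-4 cells, and at 10949 and 2171 FPKM in Ern1f/fLyz2-Cre control cells, against 18114 and 17415 FPKM in Ern1f/f control cells. Ern1 itself was at 7.43 to 14.3 FPKM in Ern1f/fLyz2-Cre cells and at 9.11 to 11.5 FPKM in Ern1f/f cells, and a gene level cannot show the loss of floxed exons. The part of these differences in the receptors' values was not tested.

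**Figure D4:**
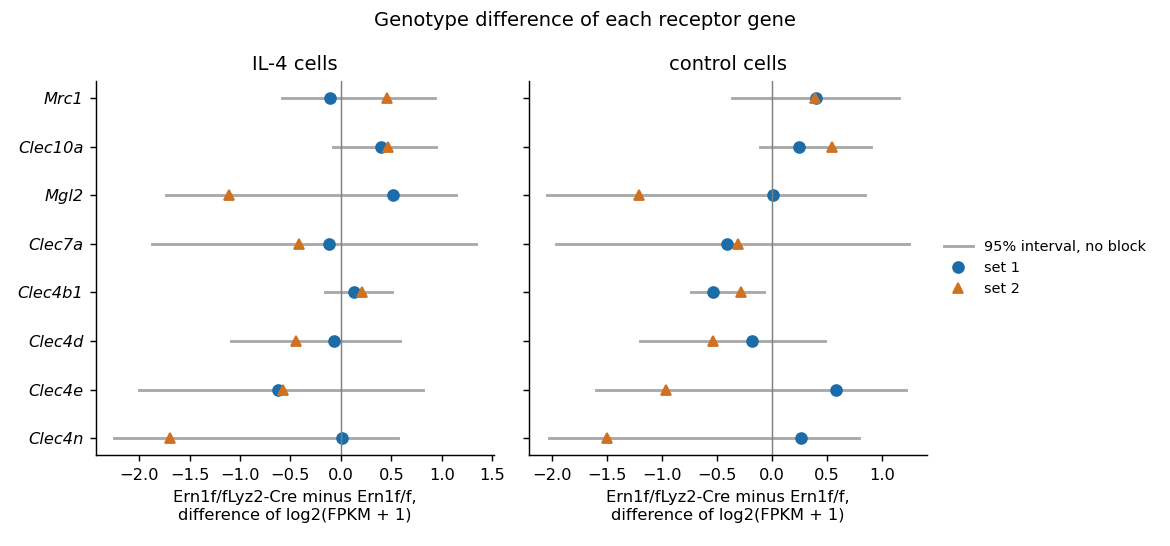
Ern1f/fLyz2-Cre minus Ern1f/f difference of log2(FPKM + 1) for each receptor gene in IL-4 cells (left) and control cells (right), with set 1 as circles, set 2 as triangles and 95% intervals without the block as lines. Clec10a lies above 0 and Clec7a and Clec4d lie below 0 in both sets and treatments, and Clec4n is near or above 0 in set 1 and at -1.69 and -1.50 in set 2.

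The response to IL-4 was not shown to differ between genotypes for any member. Interaction estimates (IL-4 difference in Ern1f/fLyz2-Cre minus that in Ern1f/f) were -0.22 for Mrc1 (95% interval -1.30 to 0.85), 0.04 for Clec10a (-0.68 to 0.76) and 0.30 for Mgl2 (-1.74 to 2.34). For Clec7a the estimate was 0.09 (-2.17 to 2.36), for Clec4d 0.10 (-1.09 to 1.29), for Clec4e -0.41 (-2.40 to 1.58) and for Clec4n -0.22 (-2.21 to 1.77). Clec4b1 had 0.57 (0.11 to 1.04), with an unadjusted p of 0.0241, the only member under 0.05, and an adjusted p of 1.0. These intervals are from the fit without the block. With the block they were -0.73 to 0.28 for Mrc1, -0.42 to 0.50 for Clec10a, -1.61 to 2.21 for Mgl2 and -0.32 to 0.51 for Clec7a. For Clec4b1 the blocked interval was 0.15 to 0.997, for Clec4d -1.01 to 1.21, for Clec4e -2.01 to 1.19 and for Clec4n -2.03 to 1.59. All are before any adjustment over genes. Limma called 0 of 8 members and 0% of all genes without and with the block, and 19 and 103 genes in all had an unadjusted p under 0.05.

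Of 34 other C-type lectin genes listed, 17 passed the filter, 15 were under 1 FPKM in all libraries, and among these Clec4f and Cd209b were listed at 0 in all. Their median IL-4 difference was -0.27, beside -0.03 for all genes. None was called without the block. With it, 1 rose and 5 fell, beside 5.88% of all genes higher and 6.86% lower. The one that rose was Clec4a3, a receptor of the Clec4a group, with 89.1 and 131 FPKM in Ern1f/fLyz2-Cre IL-4 cells, against 27.1 and 73.8 FPKM in Ern1f/fLyz2-Cre control cells. Clec4a3 in Ern1f/f cells had 76.4 and 113 FPKM with IL-4, against 32.5 and 70.1 FPKM in controls. Its averaged difference was 1.10, with an adjusted p of 0.314 without the block and 0.00930 with it.

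The 5 that fell with the block were Cd302, Thbd, Cd93, Colec12 and Clec12a. Cd302, a membrane lectin with 1 C-type lectin domain, had 29.9 and 25.3 FPKM in Ern1f/fLyz2-Cre IL-4 cells, against 60.7 and 43.7 FPKM in Ern1f/fLyz2-Cre control cells. In Ern1f/f cells it had 26.6 and 29.1 FPKM with IL-4, against 62.3 and 53.7 FPKM in controls, and all IL-4 libraries were below all controls. The averaged difference of Cd302 was -0.95, with an adjusted p of 0.0519 without the block and 0.00439 with it. Clec12a, an inhibitory receptor for uric acid crystals, differed by -0.53 (adjusted p = 0.0942 without the block, 0.0137 with it). Thbd (thrombomodulin) differed by -0.85, Cd93 by -0.76 and Colec12, a scavenger receptor with a collagen-like stalk, by -0.60, with adjusted p values with the block of 0.00767, 0.0385 and 0.0458.

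All 22 listed genes of the Syk and CARD9 signalling route passed the filter, with a median IL-4 difference of -0.20. None was called without the block, and with it 2 rose and 7 fell, beside 5.88% of all genes higher and 6.86% lower. Prkcd encodes the kinase PKCδ, which phosphorylates CARD9. It had 331 and 307 FPKM in Ern1f/fLyz2-Cre IL-4 cells, against 114 and 152 FPKM in Ern1f/fLyz2-Cre control cells. Prkcd in Ern1f/f cells had 382 and 280 FPKM with IL-4, against 107 and 160 FPKM in controls. Its averaged difference was 1.29, with an adjusted p of 0.0522 without the block and 0.00789 with it, and no IL-4 library was within the control range. Malt1, the protease partner of CARD9 and Bcl10, differed by 0.55 (adjusted p = 0.119 without the block, 0.0152 with it).

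Among the 7 that fell in the blocked fit were Fcer1g, Lyn, Vav1, Plcg2, Ptpn6 and Nfatc1, by 0.34 to 0.53 on the log2 scale. Lyn is a Src family kinase, Vav1 an exchange factor, Plcg2 a phospholipase, Ptpn6 the phosphatase SHP-1 and Nfatc1 a calcium-dependent transcription factor. Fcer1g encodes the Fc receptor γ chain that Mincle, Dectin-2, MCL and DCAR use for signalling. It had 1640 and 2000 FPKM in Ern1f/fLyz2-Cre IL-4 cells, against 2024 and 2467 FPKM in Ern1f/fLyz2-Cre control cells. Fcer1g in Ern1f/f cells had 1539 and 1808 FPKM with IL-4, against 2273 and 2492 FPKM in controls. The averaged difference was -0.41 (adjusted p = 0.228 without the block, 0.0211 with it). Vav1 differed by -0.53 (adjusted p = 0.441 without the block, 0.0131 with it). Syk (-0.25), Card9 (-0.11) and Bcl10 (0.02) were not called in either fit. No gene of the route was called for IL-4 within 1 genotype, or for genotype.

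**Figure D5:**
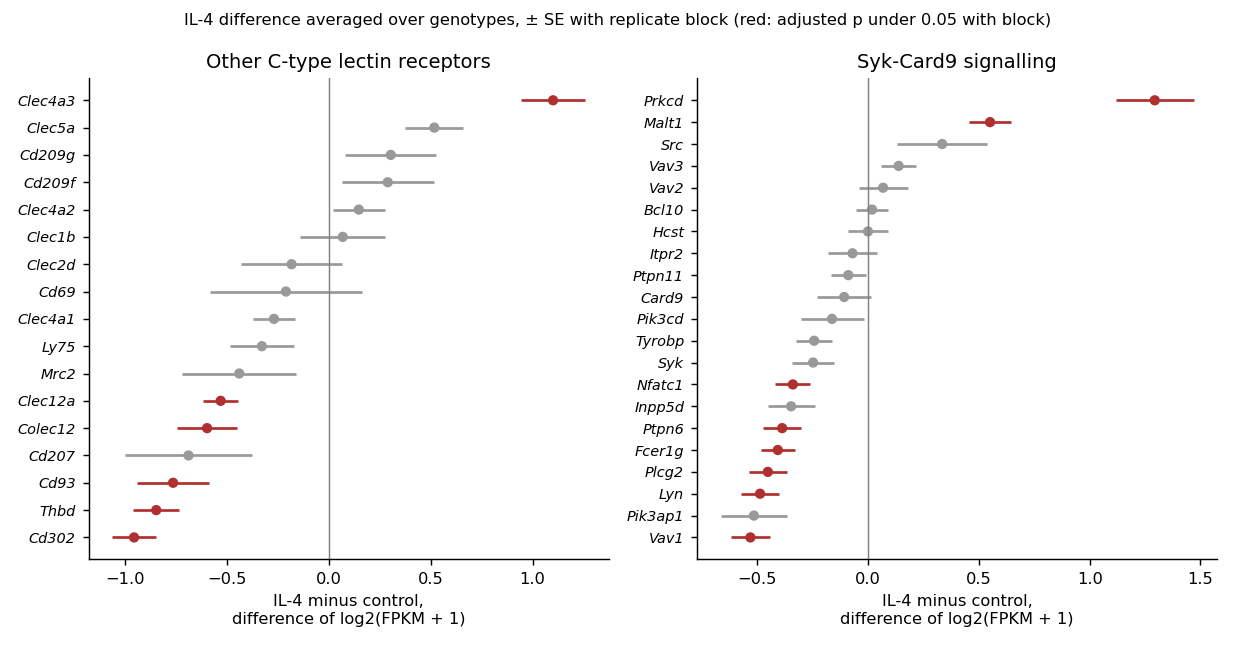
IL-4 minus control difference of log2(FPKM + 1), averaged over genotypes, with the standard error of the blocked fit, for the 17 other C-type lectin genes (left) and Syk and CARD9 route genes (right) that passed the filter; red marks an adjusted p under 0.05 with the block. Clec4a3 and Prkcd lie farthest to the right of their panels, and most red points lie left of 0.

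The genes whose log2(FPKM + 1) followed each member most closely over the 8 libraries were listed as a description, with treatment and set shared by all points. For Mrc1 they were Usp1 (Pearson r = 0.997) and Sdc4 (0.995), and for Clec10a Sdc4 and Klf9 (0.989 each). Mgl2 was nearest to H2-DMa (0.993) and Slc7a2 (0.984), and Clec4b1 to Lpxn (0.986) and H2-DMb1 (0.979). Clec7a was nearest to Gm2a (0.990) and Fam20c (0.987). Clec4d was nearest to Lilrb3 (0.992) and Cbx7 (0.990), Clec4e to Tcp11l1 (0.978) and Pik3r1 (0.967), and Clec4n to Exoc3l4 (0.963) and B3galnt2 (0.951). Among the members, Mrc1 and Clec10a were closest to each other (0.981), and Clec10a and Clec4d were the most opposed (-0.961).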

How the data were processed

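Messenger RNA was sequenced from 8 libraries. The authors deposited 1 table of gene-level FPKM per library with confidence intervals, made with TopHat 1.4.1 and Cufflinks 1.3.0 on mm10, per the submitters' processing notes; read counts were not used here. Groups follow the titles, since a genotype field in the labels contradicts the title of 4 of the 8 libraries and follows the replicate number. Rows sharing a symbol were added up. The filter, 1 FPKM or more in 2 libraries or more, left 10934 genes, to whose log2(FPKM + 1) limma 3.58.1 (R 4.3.3) fitted 4 group means, with a two-sided moderated test, a variance trend and Benjamini-Hochberg adjustment across all of them. Calls are at an adjusted p under 0.05. Set differences (replicate 2 against 1) correlated across genes for all 6 pairs of groups (r = 0.69 to 0.83), so the number was treated as a pairing and the fit with the replicate block is given where it changes a call; the labels do not say what the number marks. The code was tested on simulated data. The members and lists were chosen with earlier results of these data known. All members are named, other listed genes where called in either fit, and the 2 most similar genes per member. Clec4a2, Syk, Card9, Bcl10 and single cell type markers were named after their values were seen. Alternatives covered the pseudocount (0.1 and 5), filter, scaling, variance trend, rows per symbol, block, genotype field, the groups fitted and the omission of each library. 1 gene of the Syk and CARD9 list, counted in its totals, is not reported here. Plots used matplotlib 3.10.9 (Python 3.11.15).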

Additional observations from a re-analysis of the deposited data

Results flagged for a closer look

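Clec4b1 had genotype differences that pointed opposite ways in the 2 treatments. Ern1f/fLyz2-Cre cells stood at 110% and 116% of the Ern1f/f level with IL-4 (sets 1 and 2) and at 64.0% and 78.7% in controls. The gene was flagged by a rule on these same values. The rule asks for the same sign in both sets within a treatment and opposite signs between treatments. The within-set interactions, 0.66 and 0.48, share a direction by that rule, so their agreement is no separate support. The unadjusted p-values given next do not allow for this choice of gene. The interaction from the fit was 0.57 on the log2(FPKM + 1) scale. It did not pass the threshold over all genes (limma, unadjusted p = 0.0241, adjusted p = 1.0), and with the replicate block the unadjusted p was 0.0153. The counts behind the gene are low, at an implied 47 to 105 fragments in control libraries.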

How the results depend on the processing

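All IL-4 differences of the 8 genes kept their direction in the alternatives run. The number of members called changed. For IL-4 in Ern1f/fLyz2-Cre cells it was 1 without the block, 5 with the replicate block (also with scaling added), 2 with scaling alone, and 0 with a pseudocount of 0.1, no filter, no variance trend or only the compared groups. For Ern1f/f it was 0 without and 5 with the block or the block and scaling. Averaged over genotypes it was 4, but 5 at a pseudocount of 0.1 (4 higher and 1 lower), and 6 with the block. Leaving out 1 library gave 0 to 8 members averaged, 0 to 7 in Ern1f/fLyz2-Cre cells and 0 to 7 in Ern1f/f cells, and 0 for genotype or interaction. Averaged and without the block, 0 remained called without Ern1f/fLyz2-Cre IL-4 2, 2 without Ern1f/f control 2 or Ern1f/fLyz2-Cre IL-4 1, 4 without Ern1f/f IL-4 2 and 1 without any other. With the block, in Ern1f/fLyz2-Cre cells there were 0, 2 and 3 without their IL-4 2, IL-4 1 and control 1 libraries, and in Ern1f/f cells 0 without either of their controls, 1 without their IL-4 1.

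The genotype field in place of the titles gave 6, 7 and 7 members for IL-4 (Ern1f/fLyz2-Cre, Ern1f/f, averaged), 2 and 1 for genotype in IL-4 and control cells and 0 for the interaction. Genotype and replicate number are then the same split. The members called for genotype were Clec4e (1.15) and Clec7a (-1.075) in IL-4 cells and Clec7a (-1.152) in control cells. Where the sign reversed, genotype in IL-4 cells became -0.46 for Mrc1, -0.39 for Clec10a, 0.56 for Clec4d, 1.15 for Clec4e and 0.15 for Clec4n. In control cells it became -0.46 for Mrc1, -0.13 for Clec10a and 0.74 for Mgl2. The interaction became -0.26 for Clec10a, -1.40 for Mgl2, 1.27 for Clec4e and 0.78 for Clec4n. It was -0.065 for Clec10a at a pseudocount of 0.1 and -0.065 for Mgl2 at 5. With 1 library left out, genotype in IL-4 cells ran from -0.20 to 0.54 for Mrc1, -1.31 to 0.71 for Mgl2, -0.88 to 0.34 for Clec7a and -0.73 to 0.22 for Clec4d. In control cells it ran from -1.47 to 0.28 for Mgl2, -0.96 to 0.24 for Clec7a, -0.83 to 0.12 for Clec4d, -1.12 to 0.75 for Clec4e and -1.47 to 0.23 for Clec4n. The interaction ran from -0.60 to 0.15 for Mrc1, -0.18 to 0.25 for Clec10a, -0.71 to 1.31 for Mgl2, -0.52 to 0.71 for Clec7a, -0.38 to 0.58 for Clec4d, -1.34 to 0.53 for Clec4e and -1.07 to 0.63 for Clec4n. The cause was not tested. Counts over all genes are 6, 0 and 92 without and 363, 232 and 1393 with the block for the IL-4 comparisons (Ern1f/fLyz2-Cre, Ern1f/f, averaged). With 1 library left out they were 0 to 1, 0 to 1 and 3 to 49 without the block, and 2 to 339, 6 to 278 and 491 to 1226 with it, so the shares over all genes move too. Read depth is not known beyond interval widths, and 2 libraries a group limit each value.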

Other observations

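Levels of several receptors moved with the set as well as with treatment. Clec7a was lower in set 2 in all 4 groups. Mrc1 was also lower in set 2 in all 4 groups, by 1.13- to 1.68-fold, while Clec4d was higher in set 2 with IL-4 and lower in set 2 in controls, in both genotypes. Monocyte markers, of which 6 of 7 passed the filter, summed to 69.6 to 731 FPKM in set 1 and to 1014 to 6722 FPKM in set 2, most of it Chi3l3, except in the set 1 controls, where Fn1 made up most of it. Ly6c2, Plac8 and Vcan were lower with IL-4 in all 4 set-matched pairs, none of them called in either fit, at 1.75 to 3.25 FPKM with IL-4, against 2.66 to 3.87 FPKM in controls, for Ly6c2. Chi3l3, the gene of the secreted lectin Ym1 that IL-4 also induces, had 655 and 6637 FPKM in Ern1f/fLyz2-Cre IL-4 cells, against 0.407 and 1088 FPKM in Ern1f/fLyz2-Cre control cells. In Ern1f/f cells it had 476 and 4276 FPKM with IL-4, against 0.844 and 999 FPKM in controls. Ccr2, which marks inflammatory monocytes, had 3.16 and 0.971 FPKM in Ern1f/fLyz2-Cre IL-4 cells, against 0.602 and 0.803 FPKM in Ern1f/fLyz2-Cre control cells, and 3.497 and 2.77 FPKM in Ern1f/f IL-4 cells, against 0.688 and 0.906 FPKM in Ern1f/f control cells. Averaged over genotypes, Chi3l3 (log2 difference 5.40) and Ccr2 (0.98) were called higher with IL-4 in the blocked fit (limma, adjusted p = 0.0341 and 0.0350). Neither was called without the block. Fn1 was lower with IL-4 in set 1 and higher in set 2, in both genotypes, and was not called in either fit. The part of monocytes in the receptors' values was not tested. Of the other marker lists, 2 of 9 neutrophil, 3 of 8 B cell, 1 of 9 T or NK cell and 0 of 8 mast cell or basophil markers found passed the filter. Among them S100a8 (neutrophil, log2 difference -1.02), Cd79b (B cell, -0.86) and Cd4 were called lower with IL-4 in the blocked fit. Averaged over genotypes, their adjusted p values were 0.0124, 0.0120 and 0.0333 (limma). None of them was called without the block. S100a8 was also called with the block in Ern1f/f cells alone (adjusted p = 0.0354). Cd4 had 0.759 to 2.51 FPKM with IL-4, against 1.41 to 9.14 FPKM in controls. The part of such cells in the receptors' values was not tested.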
